A study of Oryza sativa with 18 samples.

Results

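Zn-deficient shoots of rice were compared with Zn-sufficient shoots over all expressed loci, taken by function. The comparison used 6 of the 18 poly(A) RNA libraries of the study, chosen by their labels: 3 of -Zn shoots (ZMS 1 to 3) and 3 of +Zn shoots (ZPS 1 to 3). All plants were 4-week-old seedlings of Oryza sativa japonica cv. Nipponbare, grown in nutrient solution after germination on water, and a shoot sample was leaf and stem. ZMS plants had no ZnSO4 in the solution for 14 days, and ZPS plants kept 1.5 µM ZnSO4. Each library came from a pool of 3 seedlings, so the p-values below measure the spread between such pools. Of the other libraries, 3 were of resupplied shoots (ZRS, 1.5 µM ZnSO4 for 3 days after 14 days without), and 3 each were of -Zn, +Zn and resupplied roots (ZMR, ZPR and ZRR). The labels give the same age for resupplied plants, although they had 3 more days of treatment than ZMS plants.

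Zn is a cofactor of many plant enzymes, among them carbonic anhydrase, Cu/Zn superoxide dismutase and alcohol dehydrogenase, and it holds the fold of zinc finger proteins. Grasses take it up through ZIP transporters of the plasma membrane, move it in the plant partly bound to nicotianamine or deoxymugineic acid, and store it in the vacuole through metal tolerance proteins. Shoots depend on the roots for it, and young leaves are served before old ones when it is short.

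The data are FPKM values (fragments scaled by the length of the transcript and the size of the library) of 34716 gene loci on the IRGSP-1.0 genome. The 6 libraries were of like depth, with 6.74 to 7.75 reads per base for each FPKM, and listed between 26975 and 27317 loci above 0. Green tissue markers were 19 loci of chlorophyll a/b binding proteins and the small subunit of Rubisco, including a methyltransferase of that subunit. They summed to between 7157 and 10513 FPKM in ZMS and between 6877 and 12911 FPKM in ZPS. No root library was above 396. Root markers (9 loci, among them the silicon transporters Lsi1 and Lsi2) summed to between 7.19 and 18.3 FPKM in ZMS and between 10.6 and 13.6 FPKM in ZPS, against at least 759 in any root library. The 2 KNOX genes listed as shoot meristem markers were near 0, at most 0.0681 FPKM summed in ZMS and 0.124 in ZPS. They summed to between 7.44 and 18.4 FPKM in the root libraries, so here they do not mark the shoot meristem. Transcripts of the intronic and intergenic classes took 3.43, 1.91 and 1.96% of the FPKM in ZMS 1 to 3, and 5.14, 1.81 and 2.16% in ZPS 1 to 3, so the first replicate was the highest in each group.

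Of the 20512 loci tested, 13 were higher and 5 lower in ZMS than in ZPS. A locus was called where the log2 fold change reached 1 in either direction with an adjusted p no greater than 0.05 (limma on log2(FPKM + 0.5), Benjamini-Hochberg adjustment over all loci tested). These 18 called loci are 0.0878% of those tested, 0.0634% higher and 0.0244% lower. They include 3 Zn transporter genes and genes for a nicotianamine aminotransferase, a prolyl endopeptidase, an F-box-like protein and a GRAS transcription factor, all higher in ZMS, and a cytochrome P450 gene, which was lower. The median log2 fold change was 0.03, and 88.6% of loci lay within 0.5 of 0. At an unadjusted p under 0.05 there were 224 loci higher (1.09%) and 121 lower (0.59%). All ZMS libraries were above all ZPS libraries for 787 loci (3.84%) and below them for 546 (2.66%). In bulk shoots, a change in RNA per cell and a change in the share of a cell type cannot be told apart. The number called rested on every library. Without ZMS 1, 2 or 3 there were 6, 4 and 6 loci higher, and without ZPS 1, 2 or 3 there were 8, 6 and 7. Without ZRS 3, which shares the estimate of the spread, there were 8. The number of lower loci was 3 without ZMS 3, ZPS 1 or ZPS 2, 2 without ZPS 3, and 8 without ZRS 1. Without any 1 ZMS or ZPS library, only 2 of the 5 lower loci were called again. This held without ZMS 1 or ZMS 2 too, where the total stayed at 5. Of the 13 higher loci, 4 to 6 were called again without 1 ZMS or ZPS library.

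**Figure D1:**
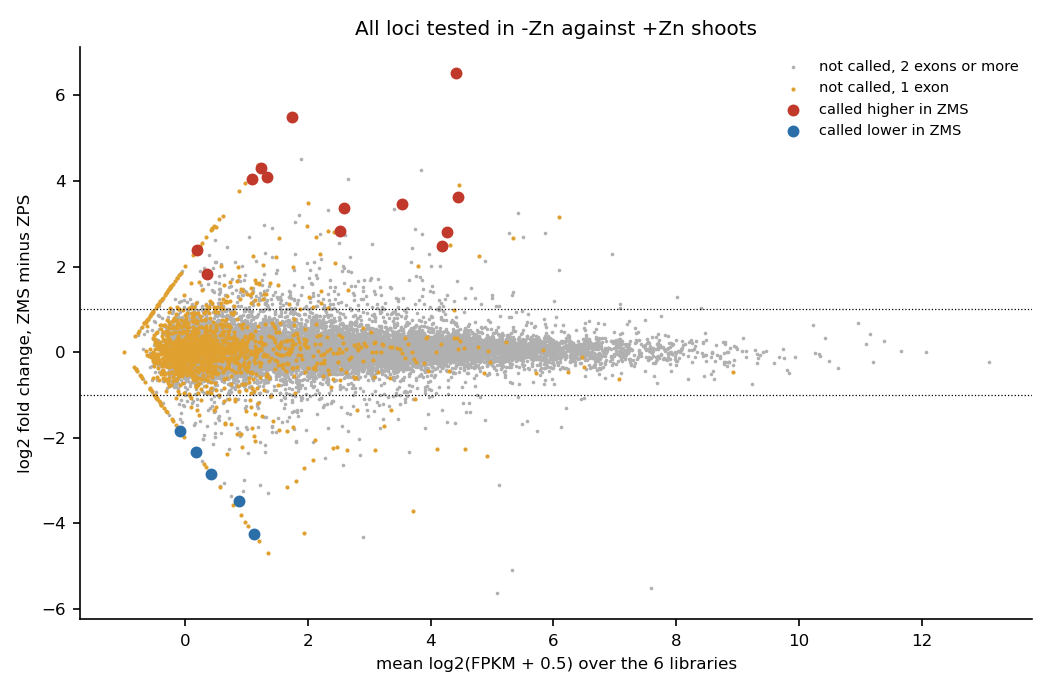
Log2 fold change, ZMS minus ZPS, of the 20512 loci tested against their mean log2(FPKM + 0.5) over the 6 libraries, with dotted lines at a change of 1 in either direction. The 13 loci called higher in ZMS (red) and the 5 called lower (blue) stand out from a cloud centred near 0, and the diagonal edges are loci listed at 0 in a whole group, many of them with 1 exon (orange).

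Of the 13 Zn transporter genes of the ZIP family tested, 3 rose in ZMS. OsZIP10 (Os06g0566300, chromosome 6, 21824110 to 21827066, plus strand, 5 exons in its longest model) had 38.8, 49.6 and 28.4 FPKM in ZMS 1 to 3 and 3.26, 2.81 and 2.84 FPKM in ZPS 1 to 3. The groups were far apart, with a log2 fold change of 3.47 (SE 0.24, adjusted p = 0.000817). OsZIP8 (Os07g0232800, chromosome 7, 7394486 to 7398274, plus strand) had 44.9, 53.5 and 53.8 FPKM in ZMS and 5.41, 7.97 and 7.14 FPKM in ZPS, again with no overlap. Its log2 fold change was 2.81 (SE 0.36, adjusted p = 0.0381), a call lost without any 1 of the 6 libraries or ZRS 2 (0.00035 to 0.287 over its alternatives). OsZIP4 (Os08g0207500, chromosome 8, 6267823 to 6270998, plus strand) had 8.02, 24.6 and 16.4 FPKM in ZMS and 1.58, 2.16 and 1.35 FPKM in ZPS. ZMS 1 was the lowest of its group and still above every ZPS library. The log2 fold change was 2.82 (SE 0.37, adjusted p = 0.048), the largest adjusted p among the called loci. With a block for the replicate number it was 0.0855. The call was lost without any 1 of 8 libraries (all of the 9 shoot libraries but ZMS 1), and it was made under 5 of 22 alternatives.

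OsZIP10 stood beside 2 other loci that rose. Os06g0566201 has no description and lies on the minus strand of the same stretch (chromosome 6, 21824087 to 21826731), where 2622 of its 2645 bases fall within OsZIP10. It had 28.2, 25.5 and 9.07 FPKM in ZMS and 1.59, 1.48 and 1.06 FPKM in ZPS (log2 fold change 3.37, SE 0.39, adjusted p = 0.027). The sources used here do not say that the libraries kept the strand, and without it the reads of these overlapping loci cannot be told apart. The call was lost without ZMS 1, ZMS 2 or any 1 of the ZPS and ZRS libraries. MSTRG.18312 is a locus of 6 exons assembled by the authors with no RAP gene name, on the plus strand 1483 bases beyond the end of OsZIP10 (chromosome 6, 21828550 to 21832593). It had 2.40, 1.76 and 1.6 FPKM in ZMS and 0.170, 0.166 and 0.199 FPKM in ZPS. The groups did not overlap and the log2 fold change was 1.82 (SE 0.23, adjusted p = 0.0352), but the adjusted p was 0.106 with a block for the replicate number, and the call was lost without any 1 of the ZPS libraries, ZRS 2 or ZRS 3.

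Os02g0306401 (chromosome 2, 11997254 to 12002625, minus strand, 7 exons) is described as similar to nicotianamine aminotransferase A, the enzyme that turns nicotianamine into the precursor of deoxymugineic acid, the phytosiderophore of rice. It had 82.9, 67.0 and 79.9 FPKM in ZMS and 5.47, 4.74 and 7.22 FPKM in ZPS, so that every ZMS library was far above every ZPS library. The log2 fold change was 3.62 (SE 0.30, adjusted p = 0.00338), and all 22 alternatives kept the call. It was the only called locus among the 8 tested genes of nicotianamine and phytosiderophore synthesis and transport. Of the others, the nicotianamine aminotransferase-like gene Os06g0345200 had 6.26, 5.74 and 4.80 FPKM in ZMS and 5.98, 5.53 and 5.99 FPKM in ZPS. Os04g0542800, described as a transporter of metals bound to nicotianamine and deoxymugineic acid, had 3.64, 5.41 and 9.63 FPKM in ZMS and 3.03, 4.87 and 7.61 FPKM in ZPS. These groups overlapped, and neither was called.

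Genes of protein breakdown supplied the largest change. Os04g0561500 (chromosome 4, 28108587 to 28114766, plus strand, 13 exons) is described as a prolyl endopeptidase, an enzyme that cuts peptides after proline. It had 201, 217 and 196 FPKM in ZMS and 1.21, 1.68 and 2.46 FPKM in ZPS, which is 205 ± 11.1 and 1.78 ± 0.628 FPKM (mean ± SD, n = 3 each). The 3 libraries of each group were close together and the log2 fold change was 6.52 (SE 0.33, adjusted p = 0.000172), 92.0-fold on the scale of FPKM + 0.5. Both annotated isoforms took part, with 135, 147 and 127 FPKM in ZMS and 0.772, 1.12 and 1.68 FPKM in ZPS for one, and 115, 126 and 109.6 FPKM in ZMS and 0.708, 1.01 and 1.43 FPKM in ZPS for the other. Os04g0280500 (chromosome 4, 11894550 to 11898995, plus strand) is described as an F-box-like protein. F-box proteins choose the targets of ubiquitin ligases. It had 9.57, 11.8 and 8.70 FPKM in ZMS and 0.0689, 0.0244 and 0 FPKM in ZPS, with no overlap (log2 fold change 4.30, SE 0.24, adjusted p = 0.000246). Most of it came from an isoform of 3 exons assembled by the authors, with 9.34, 11.8 and 8.72 FPKM in ZMS, rather than from the annotated isoform, with 1.41, 0.964 and 0.471 FPKM in ZMS. Each was the only called locus of its list, among 331 peptidases and 158 F-box proteins tested, whose medians were 0.05 and 0.03 beside 0.03 over all loci.

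The locus of smallest p was Os02g0663100 (chromosome 2, 26852477 to 26854948, plus strand, 1 exon), a GRAS transcription factor gene. GRAS proteins are plant regulators of which the DELLA repressors of gibberellin response are best known. It had 17.2, 25.8 and 23.7 FPKM in ZMS, against 0 in the 15 other libraries, ZPS 1 to 3 among them (adjusted p = 3.77e-05). No other of the 15 GRAS genes tested was called. Os10g0503300 (chromosome 10, 19214960 to 19215235, plus strand, 1 exon), described as an acetyltransferase of the taxane type, had the same pattern, with 3.19, 1.72 and 1.69 FPKM in ZMS and 0 in the other 15 libraries (adjusted p = 0.018). Its call was lost without any 1 of the ZPS libraries. Without any 1 ZMS library, Os10g0503300 and Os02g0663100 fell below the filter and were not tested. A value of exactly 0 needs care in these files. Among loci tested whose transcripts have 1 exon, 594 of 1496 (39.7%) were at 0 in a library of ZMS or ZPS while another library of that group was above 1 FPKM, against 315 of 19016 (1.66%) of the loci with more exons. All 5 called loci with 1 exon had a whole group listed at 0, and no called locus with more exons did. A group at 0 adds no spread, so p-values of such loci can be too small, and their fitted fold changes depend on the 0.5 added to FPKM.

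Loci of unknown function made up 4 of the 13 that rose, Os06g0566201 and MSTRG.18312 among them. Os10g0328600, in its copy MSTRG.25663 (chromosome 10, 9212944 to 9216524, minus strand), is listed as a hypothetical protein. It had 8.40, 10.0 and 6.39 FPKM in ZMS and 0.0292, 0.0270 and 0.00948 FPKM in ZPS, with a log2 fold change of 4.05 (SE 0.23, adjusted p = 0.000246). Os03g0293100 (chromosome 3, 10208901 to 10210441, plus strand), a conserved hypothetical protein, had 60.7, 35.7 and 35.6 FPKM in ZMS and 6.75, 6.99 and 8.00 FPKM in ZPS (log2 fold change 2.48, SE 0.30, adjusted p = 0.0272). The rise lay in 1 isoform. The annotated transcript of 2 exons had 92.5, 48.9 and 48.2 FPKM in ZMS, against 0 in every ZPS library. A transcript of 1 exon over the same stretch had 2.31, 4.94 and 5.24 FPKM in ZMS and 4.25, 6.17 and 6.69 FPKM in ZPS, and these overlapped. Another assembled transcript had 0.716, 0.230 and 0.392 FPKM in ZMS and 2.85, 0.976 and 1.54 FPKM in ZPS, the opposite order. The call on the locus was lost without any 1 of the 6 libraries or ZRS 3.

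Os07g0670600 (chromosome 7, 28352641 to 28354759, plus strand) is described as a NIP7-domain protein, a factor of ribosome assembly in yeast. It had 9.53, 10.6 and 9.71 FPKM in ZMS and 0, 0.194 and 0.170 FPKM in ZPS (log2 fold change 4.09, SE 0.52, adjusted p = 0.0381). In the other groups its replicates disagreed, with 1.71, 10.4 and 7.79 FPKM in ZRS, 1.50, 10.9 and 0.470 FPKM in ZMR, and 0.462, 0.209 and 14.6 FPKM in ZPR. The call was lost without any 1 of the 6 libraries or ZRS 3, and with all 18 libraries in the fit its adjusted p was 1.

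**Figure D2:**
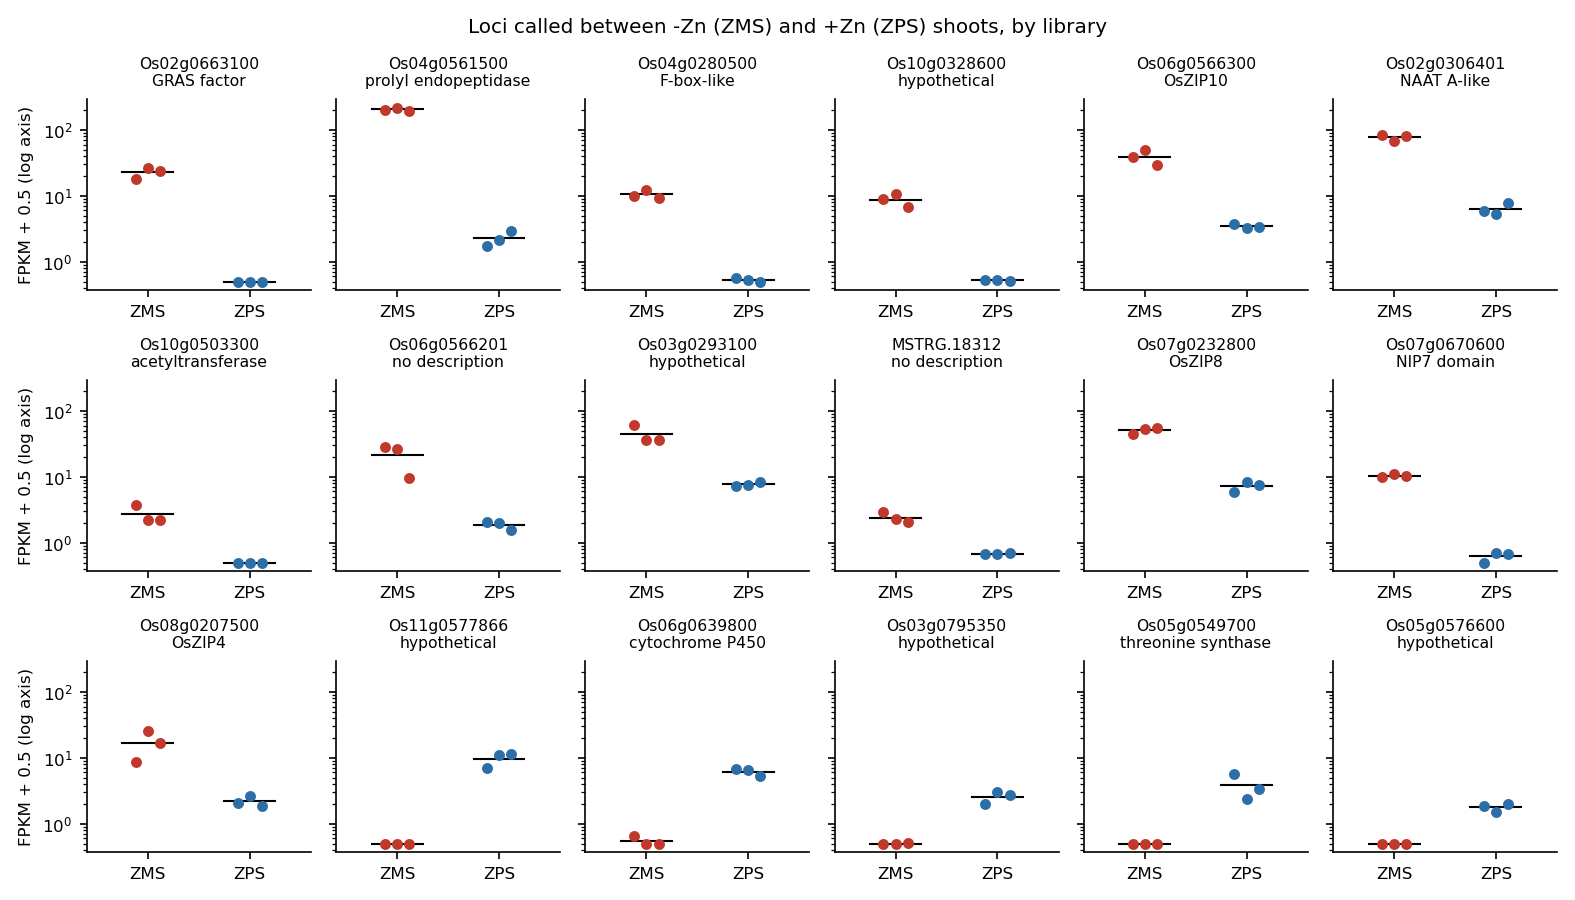
FPKM + 0.5 (log axis) of the 18 called loci in each ZMS library (red, left) and each ZPS library (blue, right), with bars at the group means. In all 18 panels the 3 ZMS libraries and the 3 ZPS libraries do not overlap, as with Os04g0561500 at 196 FPKM or more in ZMS and 2.46 or less in ZPS.

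All 5 loci that fell in ZMS were at or near 0 there. Os06g0639800, a cytochrome P450 gene (chromosome 6, 26021941 to 26029326, plus strand, 3 exons), had 0.165, 0 and 0 FPKM in ZMS and 6.34, 5.99 and 4.73 FPKM in ZPS. Cytochromes P450 oxidise many hormones and secondary metabolites. The log2 fold change was -3.48 (SE 0.30, adjusted p = 0.00382), and this was the only call among 107 P450 genes tested, whose median was 0.02. Os03g0795350, a hypothetical gene of 2 exons (chromosome 3, 33078808 to 33085424, plus strand), had 0, 0 and 0.00992 FPKM in ZMS and 1.49, 2.53 and 2.22 FPKM in ZPS (log2 fold change -2.34, SE 0.24, adjusted p = 0.0128). Without any 1 ZMS library this call was lost. Nearly all of its signal was in a long transcript assembled by the authors, which was at 0 in every ZMS library and had 1.64, 2.78 and 2.44 FPKM in ZPS.

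The other 3 have 1 exon and were listed at 0 in every ZMS library. Os11g0577866, a conserved hypothetical protein (chromosome 11, 21789933 to 21791582, minus strand), had 6.60, 10.4 and 10.8 FPKM in ZPS (adjusted p = 0.00338). Os05g0549700, described as a chloroplast threonine synthase (chromosome 5, 27290656 to 27292494, plus strand), had 5.17, 1.91 and 2.92 FPKM in ZPS (adjusted p = 0.018). It was also at 30.5 FPKM in ZMR 1 and at 0 in the other 14 libraries, so its zeros are not particular to Zn-deficient shoots, and the call was lost without any 1 ZMS library or ZRS 3. Os05g0576600, a conserved hypothetical protein (chromosome 5, 28710320 to 28711118, minus strand), had 1.35, 1.02 and 1.53 FPKM in ZPS (adjusted p = 0.0272, and 0.075 with a block for the replicate number). Its call was lost without any 1 of the ZMS libraries, ZRS 2 or ZRS 3.

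The loci just outside the thresholds had groups that did not overlap. Os06g0591600, similar to the haemoglobin Hb2, an oxygen-binding protein of plant cells, had 67.6, 67.9 and 60.9 FPKM in ZMS and 21.3, 21.4 and 31.2 FPKM in ZPS (log2 fold change 1.41, SE 0.19, adjusted p = 0.0563, not called). Os04g0579700, which carries a GO term for protein ubiquitination, had 7.43, 8.30 and 7.44 FPKM in ZMS and 1.85, 2.77 and 1.16 FPKM in ZPS (1.81, adjusted p = 0.0826, not called). Another ZIP gene, Os05g0198400, had 6.21, 12 and 8.00 FPKM in ZMS and 2.04, 1.50 and 1.85 FPKM in ZPS (1.97, adjusted p = 0.108, not called). A C2H2 zinc finger gene that the files link to the promotion of flowering, Os02g0672100, had 26.0, 28.4 and 24.2 FPKM in ZMS and 10.9, 9.87 and 12.5 FPKM in ZPS (1.21, adjusted p = 0.149, not called). The transferase gene Os05g0278500 had 2.00, 1.50 and 2.46 FPKM in ZMS and 0.0412, 0.102 and 0.258 FPKM in ZPS (1.97, adjusted p = 0.149, not called). At most 3 of 22 alternatives called any of these 5.

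The same loci were read in resupplied shoots, in a comparison that shares the ZMS or the ZPS libraries with the one above. Of the 20512 loci, 14 (0.0683%) differed between ZRS and ZMS and 5 (0.0244%) between ZRS and ZPS. Among the 18 loci, 10 were called lower and 2 higher in ZRS than in ZMS. Every ZRS library was below every ZMS library for 12 of the 13 loci that rose, the NIP7 locus being the exception. OsZIP10 had 1.98, 1.46 and 2.1 FPKM in ZRS, below all 3 ZPS libraries, and OsZIP4 had 1.67, 1.69 and 2.34 FPKM. OsZIP8 had 5.90, 11.2 and 18.4 FPKM in ZRS, a log2 difference of -2.19 from ZMS that was not called (adjusted p = 0.199). The prolyl endopeptidase gene Os04g0561500 stayed above +Zn shoots, with 10.4, 17.2 and 26.6 FPKM in ZRS (log2 difference from ZPS 2.96, adjusted p = 0.0479). The nicotianamine aminotransferase-like gene Os02g0306401 had 8.88, 15.8 and 20.5 FPKM, between ZMS and ZPS. Of the loci that fell, the P450 gene Os06g0639800 had 7.71, 3.33 and 4.56 FPKM in ZRS and Os11g0577866 had 13, 6.25 and 4.58 FPKM. Os03g0795350 stayed low, with 0.132, 0.0182 and 0.0674 FPKM in ZRS (log2 difference from ZPS -2.15, adjusted p = 0.0479). Os05g0576600 was at 0 in all 3 ZRS libraries. So was Os05g0549700, which was called lower in ZRS than in ZPS (adjusted p = 0.0479).

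The root comparison shares no library with the shoots, but whether roots and shoots came from the same seedlings is not given in the sources used here. The first replicate had the highest intronic and intergenic share in roots too (4.53, 2.15 and 2.50% in ZMR, and 3.05, 2.03 and 2.04% in ZPR). Of 21717 root loci tested, 10 (0.0460%) differed between ZMR and ZPR. Of the 18 loci called in shoots, 10 were expressed enough to be tested in roots, all of them among the 13 that rose, and 7 of these were called higher in ZMR. They were OsZIP4, OsZIP8, OsZIP10, Os06g0566201, the prolyl endopeptidase gene, the F-box-like gene and Os10g0328600. Os04g0280500, the F-box-like gene, had 24.1, 14.6 and 15.3 FPKM in ZMR and 0.0514, 0.0664 and 0.0904 FPKM in ZPR (log2 fold change 4.99, SE 0.27, adjusted p = 0.000491). OsZIP4 had 37.5, 19.2 and 27.6 FPKM in ZMR and 3.08, 2.99 and 2.63 FPKM in ZPR (log2 fold change 3.03, SE 0.31, adjusted p = 0.0177). Os04g0561500 had 167, 155 and 146 FPKM in ZMR and 7.16, 7.84 and 7.14 FPKM in ZPR (log2 fold change 4.31, SE 0.26, adjusted p = 0.000716). Its response in shoots was larger by 2.21 on the log2 scale (SE 0.44), and this difference did not pass the test (adjusted p = 0.139).

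**Figure D3:**
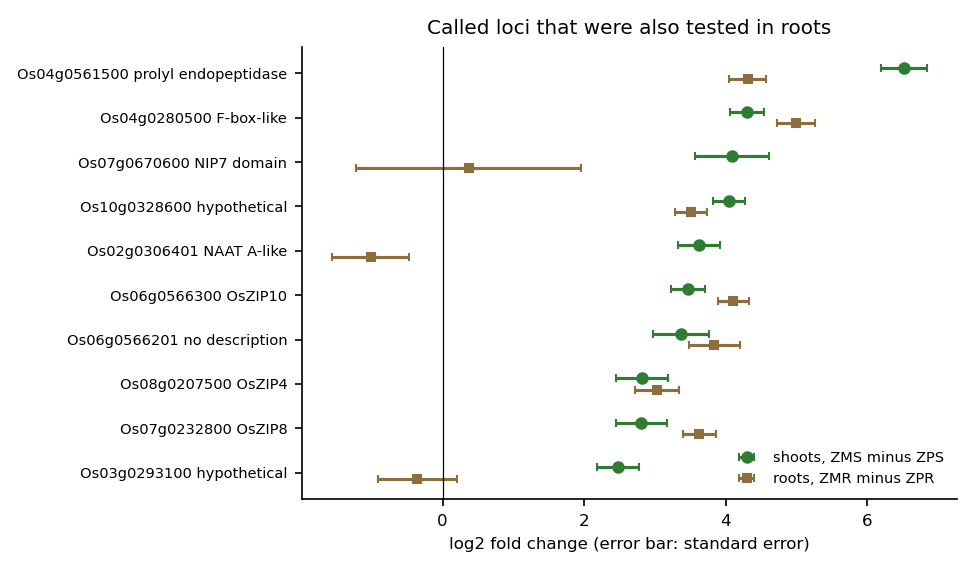
Log2 fold change with its standard error in shoots (ZMS minus ZPS, green circles) and in roots (ZMR minus ZPR, brown squares) for the 10 called loci that were tested in both. The 7 loci called in both lie between 2.81 and 6.52 in shoots and between 3.03 and 4.99 in roots, while Os02g0306401 is at 3.62 in shoots and -1.02 in roots.

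The response to -Zn differed between shoots and roots for 16 of 24431 loci in 1 fit of all 18 libraries (0.0655%, limma interaction), and 6 of the 18 loci called in shoots were among them. Os02g0306401 had 126, 155 and 142 FPKM in ZMR and 297, 238 and 326 FPKM in ZPR, a log2 fold change of -1.02 in roots (SE 0.55, adjusted p = 1, not called) beside 3.62 in shoots. The difference between the tissues was 4.64 (SE 0.65, adjusted p = 0.00941). The other 5 were Os02g0663100, Os10g0503300, Os11g0577866, Os03g0795350 and the P450 gene Os06g0639800, each of which was at 0.122 FPKM or less in every ZMR and ZPR library. For these 5 the difference between the tissues nearly repeats the shoot change, as with 5.49 and 5.49 for Os02g0663100. The interaction reuses the ZMS and ZPS libraries by which all 6 loci were called, so it is no separate support for them.

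The loci were put in 68 lists by their descriptions, GO terms or identifiers, and a list is described here by its counts and its median log2 fold change. The lists had medians between -0.12 and 0.29, and 65 lay within 0.2 of 0, beside 0.03 over all loci. Only 8 lists held a called locus, and the lists of ZIP transporters and of loci of unknown function were the ones with more than 1.

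**Figure D4:**
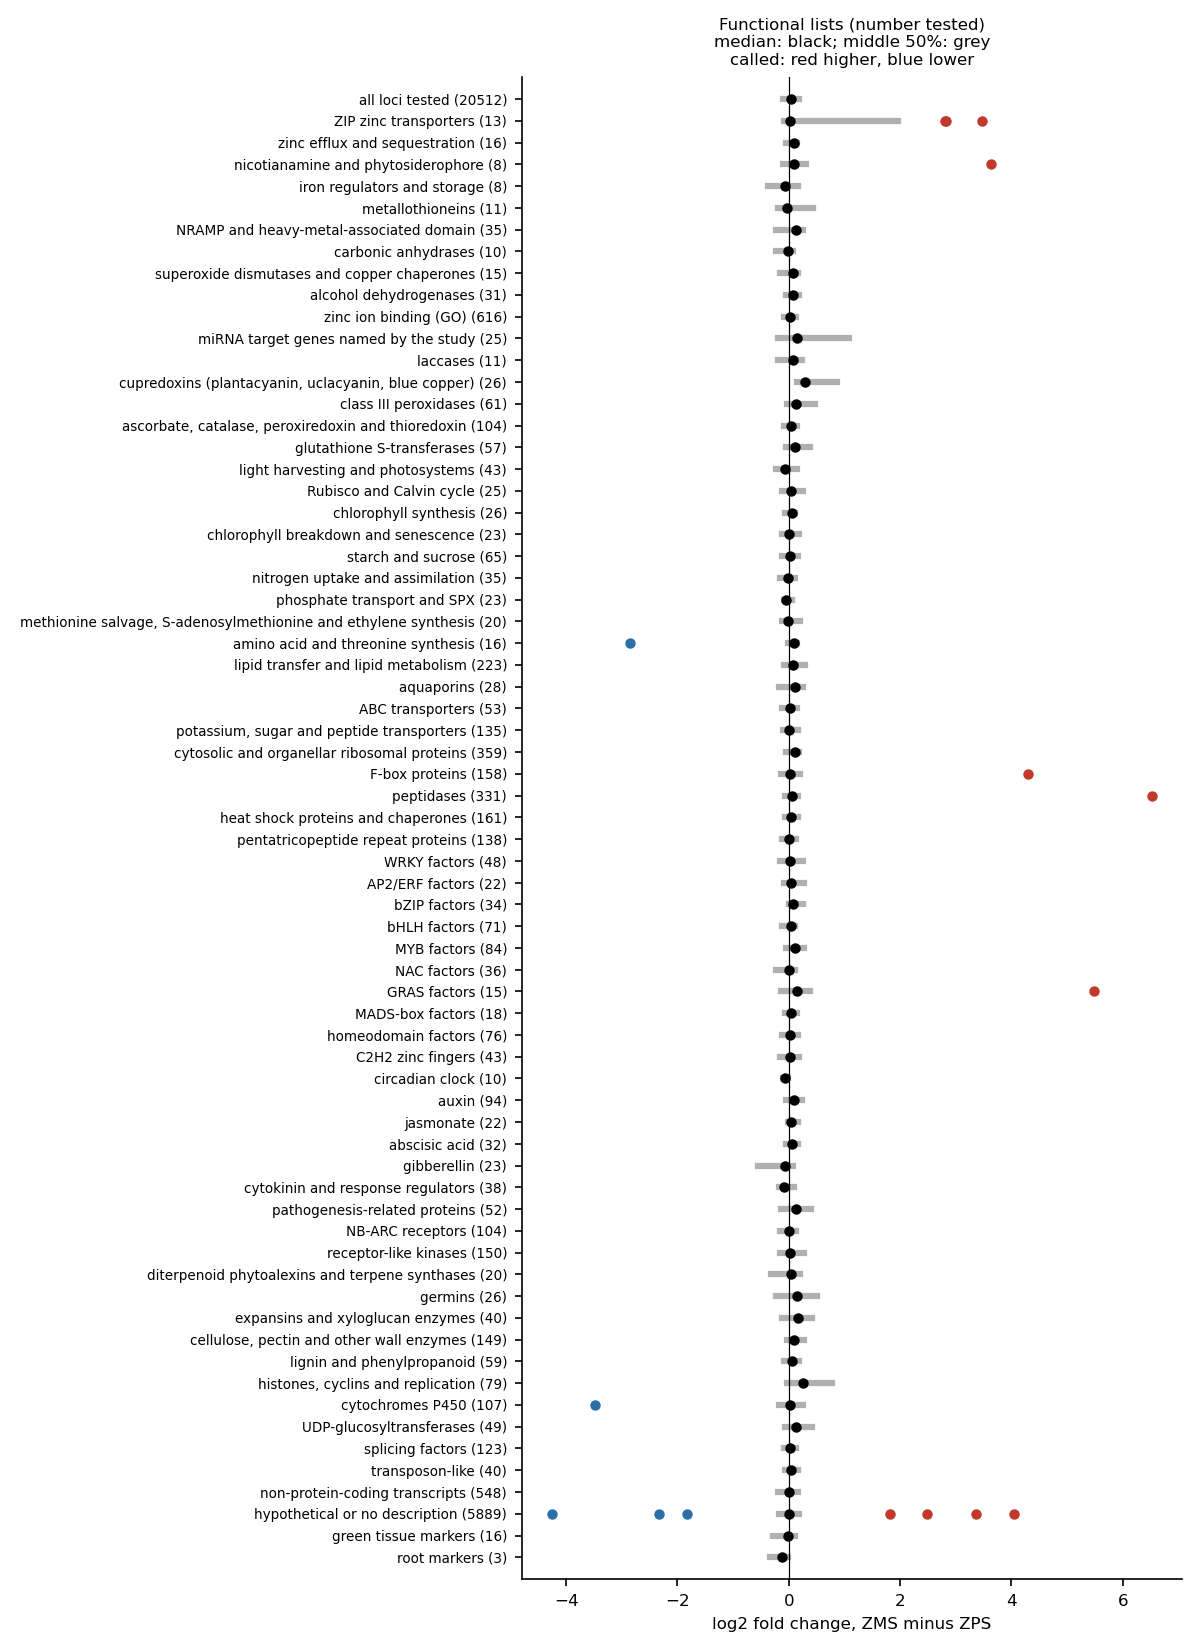
Median (black) and middle 50% (grey) of the log2 fold change, ZMS minus ZPS, of each functional list with the number of loci tested in parentheses, and the called members at their fitted values (red higher in ZMS, blue lower). The medians lie between -0.12 and 0.29, and the called loci stand far from the lists they belong to, also where a list holds several, as with the 3 called ZIP genes at 2.81 to 3.47.

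Among the genes of Zn and iron transport, the change lay in a few ZIP genes. Of 13 ZIP genes tested, 3 were called higher (23.1%, against 0.0634% of all loci). In 4 the ZMS libraries were higher with no overlap (30.8%, against 3.84% of all loci), and the median of the list was 0.02. Members that stayed level included Os02g0196000, with 9.78, 8.96 and 13.5 FPKM in ZMS and 6.92, 9.94 and 10.8 FPKM in ZPS, and Os08g0467400, with 5.94, 7.21 and 6.16 FPKM in ZMS and 4.38, 6.51 and 7.10 FPKM in ZPS (both not called). None of the 16 metal tolerance proteins and heavy-metal ATPases was called, and their log2 fold changes were between -0.36 and 0.19. Os03g0226400, similar to metal tolerance protein 4, had 31.9, 28.0 and 33.4 FPKM in ZMS and 44.6, 38.6 and 36.9 FPKM in ZPS. The groups did not overlap, but the difference of -0.36 (unadjusted p = 0.126) was not called. None of 11 metallothioneins, the small cysteine-rich proteins that bind metals, and none of 35 NRAMP and heavy-metal-associated proteins was called. Their libraries varied widely, as with the metallothionein gene Os01g0200700, which had 3430, 2244 and 2109 FPKM in ZMS and 4535, 2437 and 362 FPKM in ZPS.

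Iron storage was read in the ferritin genes. Os11g0106700 had 162, 150.3 and 151 FPKM in ZMS and 271, 165 and 209 FPKM in ZPS, with ZPS 2 only just above the ZMS libraries (log2 fold change -0.45, unadjusted p = 0.0794, not called). Os12g0106000 had 112, 149 and 244 FPKM in ZMS and 251, 216 and 342 FPKM in ZPS, and here the groups overlapped (-0.73, unadjusted p = 0.0964, not called). The 2 genes are near-identical copies, so the split of reads between them is uncertain. The regulator gene Os08g0101000, linked in the files to the iron-deficiency response, had 21.0, 24.3 and 22.7 FPKM in ZMS and 18.3, 15.6 and 19.3 FPKM in ZPS (0.35, unadjusted p = 0.136, not called).

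Enzymes that carry Zn were not called either. The beta-carbonic anhydrase gene Os01g0639900, whose product supplies CO2 for assimilation, had 382, 428 and 624 FPKM in ZMS and 794, 829 and 721 FPKM in ZPS. All ZMS libraries were lower, but ZMS 3 was near ZPS 3, and the log2 fold change of -0.74 (SE 0.33, unadjusted p = 0.0548) was not called. Of the 10 carbonic anhydrase genes tested, 3 were lower in every ZMS library (30%, against 2.66% of all loci) and the median was -0.02. The Cu/Zn superoxide dismutase gene Os07g0665200 had 73.8, 56.3 and 50.7 FPKM in ZMS and 76.8, 85.9 and 72.5 FPKM in ZPS. ZMS 1 overlapped the ZPS libraries (log2 fold change -0.39, unadjusted p = 0.142, not called). Of the 15 superoxide dismutases and copper chaperones tested, 1 was higher with no overlap (6.67%, against 3.84% of all loci). This nectarin-like gene, Os01g0249200, had 138, 167 and 154 FPKM in ZMS and 110, 0.310 and 122 FPKM in ZPS. Its fold change of 2.78 (SE 2.31, not called) rested on ZPS 2. Others overlapped, as with the manganese enzyme gene Os05g0323900 at 61.4, 46.2 and 45.4 FPKM in ZMS and 50.6, 43.8 and 39.4 FPKM in ZPS. Of 31 alcohol dehydrogenases, Os04g0497000 had the smallest p, with 13.2, 7.31 and 4.90 FPKM in ZMS and 2.27, 3.83 and 4.00 FPKM in ZPS (1.14, unadjusted p = 0.0251, not called). Over the 616 loci with the GO term for zinc ion binding, 17 were higher and 22 lower with no overlap (2.76 and 3.57%, against 3.84 and 2.66% of all loci), none was called, and the median was 0.02.

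Copper proteins and enzymes of redox balance showed no called locus. The cupredoxins, small blue copper proteins of the cell wall and membrane, had the highest median of all lists, 0.29 over 26 loci with 23 above 0. Only 1 of them did not overlap (3.85%, near the 3.84% of all loci that were higher with no overlap). It was the plantacyanin gene Os02g0731400, with 0.832, 0.0799 and 1.18 FPKM in ZMS and 0.0413, 0 and 0 FPKM in ZPS. The spread within groups was wide. None of 11 laccases was called or free of overlap. Of 61 class III peroxidases, which work on wall polymers and hydrogen peroxide, Os07g0677500 had 6.62, 4.74 and 3.33 FPKM in ZMS and 0.492, 0.185 and 0.278 FPKM in ZPS (2.69, SE 0.69, unadjusted p = 0.00388, not called). Os02g0240300 went the other way, with 13.3, 7.40 and 11.2 FPKM in ZMS and 25.4, 24.7 and 17.1 FPKM in ZPS (-1.06, unadjusted p = 0.00582, not called). The 57 glutathione S-transferases had a median of 0.12, and 1 of them was higher with no overlap (1.75%, below the 3.84% of all loci). The 25 tested miRNA target genes that the study names, a list it chose in part on these samples, had a median of 0.15. None was called, and 3 were higher with no overlap (12%, against 3.84% of all loci).

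None of the photosynthesis and chlorophyll genes was called. The 43 tested loci of light harvesting and the photosystems had a median of -0.06, and their sum over all 52 loci was 23028, 16971 and 16149 FPKM in ZMS and 21267, 19630 and 17635 FPKM in ZPS. These sums overlapped. The 31 loci of Rubisco and the Calvin cycle summed to 8899, 9343 and 9833 FPKM in ZMS and 9655, 8927 and 8311 FPKM in ZPS, which overlapped as well. The 28 loci of chlorophyll synthesis summed to 2664, 2855 and 2817 FPKM in ZMS and 3452, 3205 and 2952 FPKM in ZPS. Here every ZMS library was lower, although the median of the 26 tested was 0.05. Of these, 3 were lower with no overlap (11.5%, against 2.66% of all loci). Chlorophyll breakdown and senescence (23 loci) had a median of 0.00. Among genes of primary metabolism, starch and sucrose (65 loci), nitrogen (35), phosphate (23) and methionine and ethylene synthesis (20) had medians between -0.05 and 0.01 and no called locus. The beta-amylase gene Os03g0141200 had 10.9, 9.53 and 9.19 FPKM in ZMS and 29.1, 19.1 and 10.2 FPKM in ZPS, where ZMS 1 was above ZPS 3 (-0.83, unadjusted p = 0.0523, not called). A cell wall invertase gene, Os02g0534400, had 42.2, 35.2 and 41.7 FPKM in ZMS and 31.2, 32.8 and 29.0 FPKM in ZPS (0.35, unadjusted p = 0.0794, not called). Ribosomal proteins (359 loci) had a median of 0.11, aquaporins (28) 0.11, and ABC transporters (53) 0.01, with none called.

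Transcription factor families had medians between 0.01 and 0.15, with Os02g0663100 the only locus called. Among the WRKY factors, which serve in defence, a splicing variant of OsWRKY76 (Os09g0417600) had 4.43, 2.95 and 2.73 FPKM in ZMS and 0.995, 0.406 and 0.116 FPKM in ZPS (2.01, SE 0.38, unadjusted p = 0.000538, adjusted p = 0.424, not called). A WRKY45-like gene, Os05g0322900, had 14.9, 9.11 and 10.3 FPKM in ZMS and 7.30, 7.97 and 7.71 FPKM in ZPS (0.52, unadjusted p = 0.0372, not called). Over the 48 WRKY genes, 4 were higher with no overlap (8.33%, against 3.84% of all loci) and the median was 0.02. The circadian clock genes had a median of -0.06, 9 of 10 below 0 and none free of overlap. Hormone lists (auxin, jasmonate, abscisic acid, gibberellin, cytokinin) had medians between -0.09 and 0.09. The SAUR gene Os04g0662400, of an auxin-induced family, had 0.520, 1.02 and 1.32 FPKM in ZMS, against 0 in every ZPS library (adjusted p = 0.628, not called).

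Defence lists held loci that were higher in ZMS without being called. The chitinase gene Os10g0542900 had 14.4, 17.0 and 12.1 FPKM in ZMS and 4.92, 2.9 and 4.47 FPKM in ZPS (1.72, SE 0.36, unadjusted p = 0.00103, adjusted p = 0.678). The groups did not overlap. In the list of diterpenoid phytoalexins and terpene synthases, 3 of 20 loci were higher with no overlap (15.0%, against 3.84% of all loci). They were the syn-copalyl diphosphate synthase gene Os04g0178300 with 2.50, 1.70 and 1.64 FPKM in ZMS and 0.682, 0.625 and 0.867 FPKM in ZPS, and the terpene synthase genes Os02g0121700 and Os02g0570400. The median of that list was 0.03. Of 104 NB-ARC receptors, 4 were higher with no overlap (3.85%, near the 3.84% of all loci) and 7 lower (6.73%, against 2.66%), and the median was 0.01.

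In the cell wall lists, 2 xyloglucan enzyme genes were lower in every ZMS library without being called. These enzymes cut and rejoin the xyloglucan chains between cellulose fibrils of growing walls. Os06g0697000 had 25.3, 24.0 and 30.9 FPKM in ZMS and 75.6, 90.8 and 80.6 FPKM in ZPS, a wide gap (-1.61, SE 0.41, unadjusted p = 0.00356, not called). Os11g0539200 had 2.54, 5.40 and 6.74 FPKM in ZMS and 10.9, 11.8 and 10.8 FPKM in ZPS (-1.20, SE 0.30, unadjusted p = 0.0032, not called). The list of 40 expansins and xyloglucan enzymes had a median of 0.16, with 26 members above 0, so these 2 were not typical of it. In that list 3 loci were lower with no overlap (7.5%, against 2.66% of all loci) and 2 higher (5.0%, against 3.84%). Among 149 tested loci of cellulose, pectin and other wall enzymes, 4 were lower (2.68%) and 12 higher (8.05%) with no overlap. A beta-expansin gene, Os02g0658800, had 13.1, 20.4 and 19.0 FPKM in ZMS and 11.4, 11.2 and 10.7 FPKM in ZPS (0.61, unadjusted p = 0.0966, not called). A pectin methylesterase gene, Os06g0193200, had 1.28, 1.64 and 1.73 FPKM in ZMS and 0.630, 0.0509 and 0.136 FPKM in ZPS (1.47, unadjusted p = 0.00153, not called).

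The list of histones, cyclins and replication genes had a median of 0.25 over 79 loci, with 12 higher and no overlap (15.2%, against 3.84% of all loci) and none called. It was split after its values were seen, so the parts are given as values with no test. The 26 histone loci had a median of 0.82, 19 were above 0 and 9 were higher with no overlap (34.6%, against 3.84% of all loci). Paired by replicate number, their median was 0.17, 0.35 and 0.45. Unpaired and without ZRS 2 it was 0.54. Their summed FPKM was 566, 552 and 613 in ZMS and 299.9, 266 and 306 in ZPS, and the groups were apart. Much of that sum, and much of the gap between the groups, was in 2 loci. The H1 gene Os03g0799000 had 59.6, 75.1 and 227 FPKM in ZMS and 9.19, 4.59 and 64.9 FPKM in ZPS. Its groups overlapped, as ZMS 1 was below ZPS 3. The H2A gene Os03g0279200 had 163, 119 and 117 FPKM in ZMS and 1.13, 49.5 and 32 FPKM in ZPS. Histone genes are close copies, so reads may be split among them. The H3 loci Os06g0159725 and Os06g0159700, both among the 9 with no overlap, lie on opposite strands of the same stretch. They had 1.9, 1.13 and 1.57 FPKM and 1.64, 0.977 and 1.39 FPKM in ZMS, so the same reads may be counted in both. The 18 replication loci were all above 0, with a median of 0.63, which was 0.33 without ZPS 1. By pair it was 0.63, -0.05 and 0.74. They summed to 70.8, 75.9 and 85.0 FPKM in ZMS and 39.1, 76.8 and 49.2 FPKM in ZPS, so that ZPS 2 was within the range of ZMS. The 35 cyclin loci had a median of 0.03, and their sums overlapped. Resupplied shoots did not agree among themselves, with 366, 1128 and 446 summed FPKM of histones and 26.9, 211 and 40.4 of replication genes in ZRS 1 to 3. The KNOX genes were near 0 in every shoot library and higher in every root library, so they give no measure of the meristem. Whether the share of dividing tissue in the samples moves with the histone and replication genes was not tested.

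**Figure D5:**
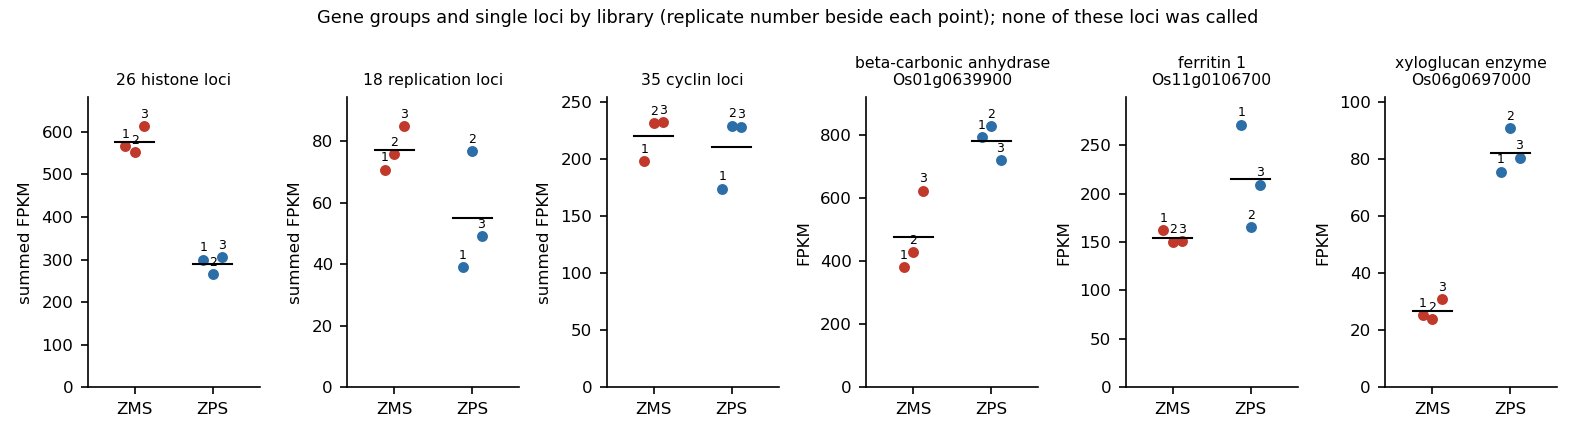
FPKM in each ZMS library (red, left) and each ZPS library (blue, right), numbered by replicate with bars at the means, summed over 26 histone, 18 replication and 35 cyclin loci and for 3 genes that were not called. The histone sums are 552 or more in ZMS and 306 or less in ZPS, the replication sum of ZPS 2 (76.8) lies among the ZMS libraries, and carbonic anhydrase and the xyloglucan enzyme Os06g0697000 are lower in all 3 ZMS libraries.

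The GO terms of the files gave a second view by function. Of 501 terms with 20 to 500 tested loci, 494 had a median log2 fold change within 0.2 of 0, and the range was -0.08 to 0.26. The terms of highest median were microtubule-based movement (56 loci, 0.26), anchored component of plasma membrane (118, 0.25), kinesin complex (57, 0.24), polysaccharide binding (66, 0.24) and microtubule motor activity (52, 0.23). These medians rested on single libraries. Without ZPS 1 they were between 0.05 and 0.10, beside -0.03 over all loci, and without ZPS 3 each was 0.37, beside 0.06. Without ZMS 1 they were between 0.31 and 0.39, and without ZMS 2 between 0.09 and 0.23. Kinesins are motors that walk on microtubules, many of them in dividing cells. In the kinesin complex 20 of 57 loci were higher with no overlap (35.1%, against 3.84% of all loci), with changes between -0.41 and 0.73 and none called. Microtubule-based movement held nearly the same signal. It summed to 497, 565 and 553 FPKM in ZMS, beside 498, 566 and 554 FPKM for the kinesin complex, so the terms are not separate results. Paired by replicate number, the median of the kinesin complex was 0.49, 0.11 and 0.08 in pairs 1 to 3, beside 0.13, -0.02 and -0.02 over all loci. The kinesin gene Os03g0301800 had 8.82, 11.1 and 9.78 FPKM in ZMS and 5.31, 8.39 and 10.3 FPKM in ZPS, so that ZPS 3 overlapped. The terms of lowest median were regulation of flower development (37 loci, -0.08), photorespiration (26, -0.07), cellular response to oxidative stress (32, -0.07), photosynthesis (63, -0.06) and oxidoreductase activity on paired donors (20, -0.06). Of the 63 photosynthesis loci, 41 were below 0, as were 8896 of all 20512 loci, and 5 were lower with no overlap (7.94%, against 2.66% of all loci). Of the lowest terms, oxidative stress was at 0.02 without ZPS 3, photorespiration at 0.05 without ZPS 2 and flower development at 0.02 without ZMS 2.

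Large fold changes were not always a difference between the groups. There were 690 loci whose log2 fold change reached 1 in either direction and that were not called. In 543 of them the libraries overlapped, and in 373 the libraries of a group ranged over more than 3 on the log2 scale. The photosystem I subunit XI gene Os12g0420400 had 993, 4.44 and 4.21 FPKM in ZMS and 1594, 1299 and 1062 FPKM in ZPS, a fold change of -5.51 (SE 1.75) that was set by ZMS 2 and ZMS 3 (not called). The non-coding locus Os12g0114900;Os12g0115150 had 0.091, 341 and 0.056 FPKM in ZMS and 209, 275 and 237 FPKM in ZPS. Here ZMS 2 was above all ZPS libraries while the others were near 0 (-5.63, SE 2.11, not called).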

How the data were processed

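RNA of 18 libraries was sequenced by the authors, and the 6 libraries of ZMS and ZPS are compared here. FPKM of each locus and isoform was made and deposited by the authors with TopHat, Bowtie2 and Cufflinks on IRGSP-1.0 with RAP-DB annotation, with several alignments allowed per read, so that close copies can share reads. Coverage of each isoform was deposited by the authors without explanation. Its ratio to FPKM was constant within a library and served as the depth. The tool that assembled the MSTRG loci is not given in the sources used here. Read counts were not used here.

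Loci that reached 0.5 FPKM in 3 or more of the 9 shoot libraries were fitted as log2(FPKM + 0.5) with limma 3.58.1 (R 4.3.3, eBayes with a trend), with group as the only term. Fold changes on this scale understate the change of low loci. Adjusted and unadjusted p-values are limma's. Roots were fitted in the same way, and the interaction used all 18 libraries. Python 3.11.15 with pandas 2.3.3, numpy 2.4.6 and matplotlib 3.10.9 did the rest. On simulated data of ZMS and ZPS (20512 loci), the same fit called 6, 23, 29 and 39 of 50 loci given log2 changes of 1, 1.5, 2 and 3, and 4 of 20312 unchanged loci. The simulated spread was normal and independent between libraries, with no added zeros beside high values and no replicate effect. The rates in the real data may therefore differ.

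The comparison, the lists and the tests were chosen with earlier results of these data known. Loci named are all called loci, list members called or, where none was, up to 4 of smallest p (for lists of Zn, iron and Zn enzymes also up to 8 of highest level), the 5 GO terms at each end, and the loci next to the thresholds. Members of the split histone list, the isoforms and the kinesin gene with an overlap were chosen after their values were seen.

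Replicate numbers were checked for pairing. Deviations from the group means correlated at 0.485, 0.18 and 0.174 between ZMS and ZPS libraries of the same number. This was taken as pairing by number, although ZMS 2 correlated more with ZPS 3 (0.217) and ZMS 3 with ZPS 2 (0.206). Only replicate 1 stood apart, at -0.314 to -0.3 with other numbers, so pairs 2 and 3 are matched by number alone. Adjusted p-values with the replicate number as a block are given where they end a call. Promoter motifs and the meristem marker OSH1 were not analysed here.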

Additional observations from a re-analysis of the deposited data

Results flagged for a closer look

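The response to -Zn differed between shoots and roots by the limma interaction for 16 loci. The values are the shoot log2 fold change minus the root one. The nicotianamine aminotransferase-like gene Os02g0306401 (4.64) was higher in ZMS than in ZPS and not called in roots. The 5 others called in shoots were changed in shoots and nearly silent in roots: Os02g0663100 (5.49), Os10g0503300 (2.39), Os11g0577866 (-4.27), Os03g0795350 (-2.38) and Os06g0639800 (-3.38). Of these, Os02g0663100, Os10g0503300 and Os11g0577866 had a whole shoot group listed at 0 and the other 2 nearly so. Their values are set by the 0.5 added to FPKM and are neither fold changes nor bounds. In shoots alone the fitted value of Os02g0663100 was between 4.52 and 7.78 with 1 and 0.1 added.

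For the other 10, every ZMR library lay on 1 side of every ZPR library, and every ZMS and ZPS library was below 1 FPKM. Os05g0472400;Os05g0472700, a merged locus of a ZIP-like and a metal transport gene (-3.54), had 0.584, 0.383 and 0.485 FPKM in ZMS and 0.328, 0.111 and 0.326 FPKM in ZPS, against 35.3, 29.1 and 25 FPKM in ZMR and 1.64, 1.61 and 1.20 FPKM in ZPR. The MADS-box gene Os04g0304400 (-3.04) had at most 0.185 FPKM in any ZMS or ZPS library. The NB-ARC gene Os05g0492200 (-2.75) had 0.720, 0.339 and 0.470 FPKM in ZMS and 0.648, 0.595 and 0.452 FPKM in ZPS, and these overlapped. The unnamed loci MSTRG.22477 (-2.05) and MSTRG.22484 (-1.72) were higher in ZMR than in ZPR in every library. The haemoglobin gene Os03g0234100 (2.69), the metal transport gene Os03g0667300 (1.90), Os12g0171801 (1.88), Os01g0495701 (2.17) and Os11g0173550 (1.34) were lower in ZMR than in ZPR in every library and at most 0.157 FPKM in any ZMS or ZPS library.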

How the results depend on the processing

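The counts of 13 higher and 5 lower loci stayed within 1.5 times under most scalings and models and moved in these cases. Without the filter on low values 8 loci were higher, and with a filter of 1 FPKM 2 were lower. With zeros beside a value above 1 FPKM taken as missing, 50 were higher and 23 lower, the 18 among them. With only the 6 libraries in the fit 9 were lower, and with all 18 libraries 3 were. Leaving out each shoot library in turn gave 4 to 14 higher and 2 to 8 lower. With the replicate number as a block, 11 were higher and 4 lower, all of them among the 18, and it changed no other call than those given in the report. The 6 libraries alone with this block, an alternative chosen after seeing the data, gave 8 and 2. The 16 loci that differed between shoots and roots were 16 with the replicate block, 9 with a pseudocount of 0.1, 51 with only the 12 libraries of -Zn and +Zn, 363 with zeros taken as missing, and 10 to 22 without 1 library. Without ZMS 3 or ZPS 3 they were 10. The cause of these moves was not tested. Of 375 alternatives for single loci, 93 lost the call and none turned the direction. These leave out cases where a locus fell below the filter and could not be tested. Os02g0663100, Os10g0328600, Os03g0795350, Os10g0503300, Os05g0549700, Os05g0576600 and MSTRG.18312 were each tested in 19 of 22 alternatives. They fell below the filter without any 1 library of the group where they were higher. Of 1474 alternatives for list medians, 8 moved by more than the spread, none of them under another scaling. With 3 libraries a group, a locus that was not called is not shown to be unchanged. The promoter search planned was not run.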
